A study of Mus musculus with 9 samples.

Results

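Keratins 7, 8, 14, 18 and 19, E-cadherin, EpCAM, claudin 4 and the transcription factor SOX9 are genes of bile duct and other epithelia, and their mRNA levels were followed in hepatic stellate cells (HSCs) and in fibroblasts of 2 mouse models of liver fibrosis. The 9 genes (Krt7, Krt8, Krt14, Krt18, Krt19, Cdh1, Epcam, Cldn4 and Sox9) were taken by symbol from a file of 24453 genes, and each was found once. RNA sequencing covered 9 libraries in 3 groups of 3, and the RNA of a library came from the cells of 3 to 5 mice. HSC libraries were made from livers of untreated C57BL/6J mice with normal liver status, by a density gradient and without a sort for GFP. CCl4-fib libraries were made from Col1a2-GFP Tg mice injected intraperitoneally with CCl4, a hepatotoxin, 2 times a week over 8 weeks. NASH-fib libraries were made from MC/COL mice, which carry Col1a2-GFP and lack the melanocortin 4 receptor (MC4R-KO), were male and 8 weeks old at the start, and ate a Western diet for 20 weeks. All mice were of the C57BL/6J strain by their labels, and the age of the mice of the other 2 groups is not given in the sources used here. In both fibroblast groups the sort took living CD45- GFP+ cells, so any cell that was negative for CD45 and drove GFP from the Col1a2 promoter entered it, whatever its lineage. Genotype, treatment and isolation method differ together between HSCs and fibroblasts, and genotype, diet and CCl4 treatment between the fibroblast groups, so their shares in a difference cannot be told apart.

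Keratins build the intermediate filaments of epithelia as obligate pairs of a type I and a type II chain. Krt7 and Krt8 encode type II chains, and Krt14, Krt18 and Krt19 encode type I chains. Hepatocytes make only keratins 8 and 18, cholangiocytes (the epithelium of bile ducts) add keratins 7 and 19, and the mesothelium that covers the liver also makes simple keratins. Keratin 14 is best known from the basal layer of stratified epithelia. E-cadherin (Cdh1) holds neighbouring epithelial cells together at adherens junctions, EpCAM is a membrane protein of most simple epithelia, and claudin 4 is a component of tight junctions. SOX9 is a transcription factor of the bile duct lineage that is also made by stellate cells and by chondrocytes.

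Libraries held between 3071070 and 5634273 reads on genes, and the deposited values are reads scaled so that every library has the same sum. Values are given per library in the order of replicates 1, 2 and 3, and a value of 3 reads lay between 2.38 and 4.37. The groups were described by marker lists. The summed value of 9 quiescent stellate cell genes was 54866 to 62114 in HSCs, 5505 to 18709 in CCl4-fib and 17645 to 31860 in NASH-fib. Most of the sum in NASH-fib came from Rgs5 (29830, 20211 and 15987), which was not called against HSCs, while the other 8 genes were called lower. The summed value of 9 activated fibroblast genes was 6579 to 12280 in HSCs, 47441 to 56003 in CCl4-fib and 29021 to 39098 in NASH-fib. This list holds Col1a2, whose promoter drove the GFP of the sort, so the sum is no independent check of the sorted groups. Col1a2 had values of 1291, 2065 and 930 in HSCs, of 12466, 15534 and 13945 in CCl4-fib and of 7426, 5263 and 3860 in NASH-fib. Postn, on this list, went the other way, with values of 5022, 5577 and 2971 in HSCs, and was called lower in NASH-fib against HSCs. Since these are bulk samples, fewer cells of a type and less RNA per cell cannot be told apart.

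The starts of 4 of the genes are printed because their levels are set side by side below. Epcam and Cldn4 are the junction genes with few or no reads in HSCs, and Krt8 and Krt18 are the partner chains that lie next to each other on chromosome 15. Each stretch runs 5′ to 3′ on the strand of the gene from 250 bases before the start site to 50 bases after it (RefSeq, GRCm38.p6), and capitals mark the E-box CAGGTG or its reverse complement CACCTG, the sequence recognised by the SNAIL and ZEB repressors of E-cadherin.
Epcam, chr17:87635729-87636028, plus strand: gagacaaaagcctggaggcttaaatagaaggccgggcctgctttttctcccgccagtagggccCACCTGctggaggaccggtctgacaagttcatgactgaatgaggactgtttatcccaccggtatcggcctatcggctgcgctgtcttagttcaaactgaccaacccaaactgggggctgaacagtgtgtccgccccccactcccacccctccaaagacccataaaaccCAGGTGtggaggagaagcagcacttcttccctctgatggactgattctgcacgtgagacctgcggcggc
Cldn4, chr5:134946885-134947184, minus strand: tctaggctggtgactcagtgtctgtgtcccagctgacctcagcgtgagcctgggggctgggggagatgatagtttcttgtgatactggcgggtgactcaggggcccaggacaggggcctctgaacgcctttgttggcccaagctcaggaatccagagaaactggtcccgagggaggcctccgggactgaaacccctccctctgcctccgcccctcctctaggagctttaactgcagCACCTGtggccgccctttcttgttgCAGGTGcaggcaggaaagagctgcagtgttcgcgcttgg
Krt8, chr15:102004293-102004592, minus strand: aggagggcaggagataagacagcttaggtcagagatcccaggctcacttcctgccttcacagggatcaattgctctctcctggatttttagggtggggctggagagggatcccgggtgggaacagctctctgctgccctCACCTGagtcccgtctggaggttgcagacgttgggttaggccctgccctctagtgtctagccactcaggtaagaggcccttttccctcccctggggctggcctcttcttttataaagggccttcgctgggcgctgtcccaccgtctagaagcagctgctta
Krt18, chr15:102027966-102028265, plus strand: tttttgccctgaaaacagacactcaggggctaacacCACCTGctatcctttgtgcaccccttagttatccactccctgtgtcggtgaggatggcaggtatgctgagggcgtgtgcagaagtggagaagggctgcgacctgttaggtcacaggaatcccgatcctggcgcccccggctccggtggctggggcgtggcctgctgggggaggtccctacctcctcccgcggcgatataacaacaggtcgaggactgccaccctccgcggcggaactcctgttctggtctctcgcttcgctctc
Epcam holds 2 of these motifs, whose first bases lie at positions -187 and -19 from the start site, and Cldn4 holds 2, at -14 and 12. Krt8 holds 1 at -111 and Krt18 1 at -214, and the promoter of Krt7 holds 1 at -44. Of the 9 genes, 6 had an entry in the promoter table, and 5 of these entries begin at the start site that the file gives for the gene. All 5 hold the motif on either strand, beside 20.2% of the 32851 promoters of the table (6640), whose start sites were not checked in this way. The 5 are 57% to 66.3% GC, against a median of 52.7% for the table. The entry for Krt14, which lacks the motif, begins 1480 bases inside the gene, so it was not read as its promoter. Krt19, Cdh1 and Sox9 were not matched. A match describes these letters only.

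Differences were tested in limma on log2(value + 1), a scale that understates the change of low genes, and a gene was called at a change of at least 2-fold with an adjusted p under 0.05 (Benjamini-Hochberg over 13651 genes). Of the 9 genes, 8 passed the filter on low values, and Cldn4 did not. In NASH-fib against HSCs, 7 of the 8 were called higher and 0 lower, where 8.23% of all tested genes were called higher, 4.3% lower and 12.5% in either direction. In CCl4-fib against HSCs, 6 of the 8 were called higher and 0 lower, where 16.2% of all tested genes were called higher, 11.7% lower and 27.8% in either direction. The median log2 fold change of the 8 genes was 3.52 in the first comparison, where that of all tested genes was -0.02, and 2.73 in the second, where it was 0.18. These comparisons share the HSC libraries. None of the 8 genes was lower than in HSCs at an unadjusted p under 0.05 in limma, nor by edgeR or DESeq2 calls, in either of them (0 of 8 each). In NASH-fib against CCl4-fib, 2 were called higher (Cdh1 and Epcam) and 1 lower (Krt14), where 4.97% of tested genes were called higher, 5.66% lower and 10.6% in either direction. The median was -0.05 for the 8 genes and -0.11 for all tested genes. The counts in this comparison rest on few libraries, being 0 with CCl4-fib replicate 2 left out and 1 with NASH-fib replicate 1 or NASH-fib replicate 3 left out. In NASH-fib against HSCs the count was 4 with HSC replicate 1, NASH-fib replicate 2 or NASH-fib replicate 3 left out. Groups without overlap were common among all tested genes. In NASH-fib against HSCs, 12.7% lay fully apart higher and 11.6% lower. The shares were 27.8% and 20.9% in CCl4-fib against HSCs, and 17.1% and 22% in NASH-fib against CCl4-fib. Of the 8 genes, 7 and 0, 6 and 0, and 3 and 2 lay fully apart in these comparisons. With 3 libraries against 3, an exact permutation test of 1 gene cannot give a two-sided p under 0.1.

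**Figure D1:**
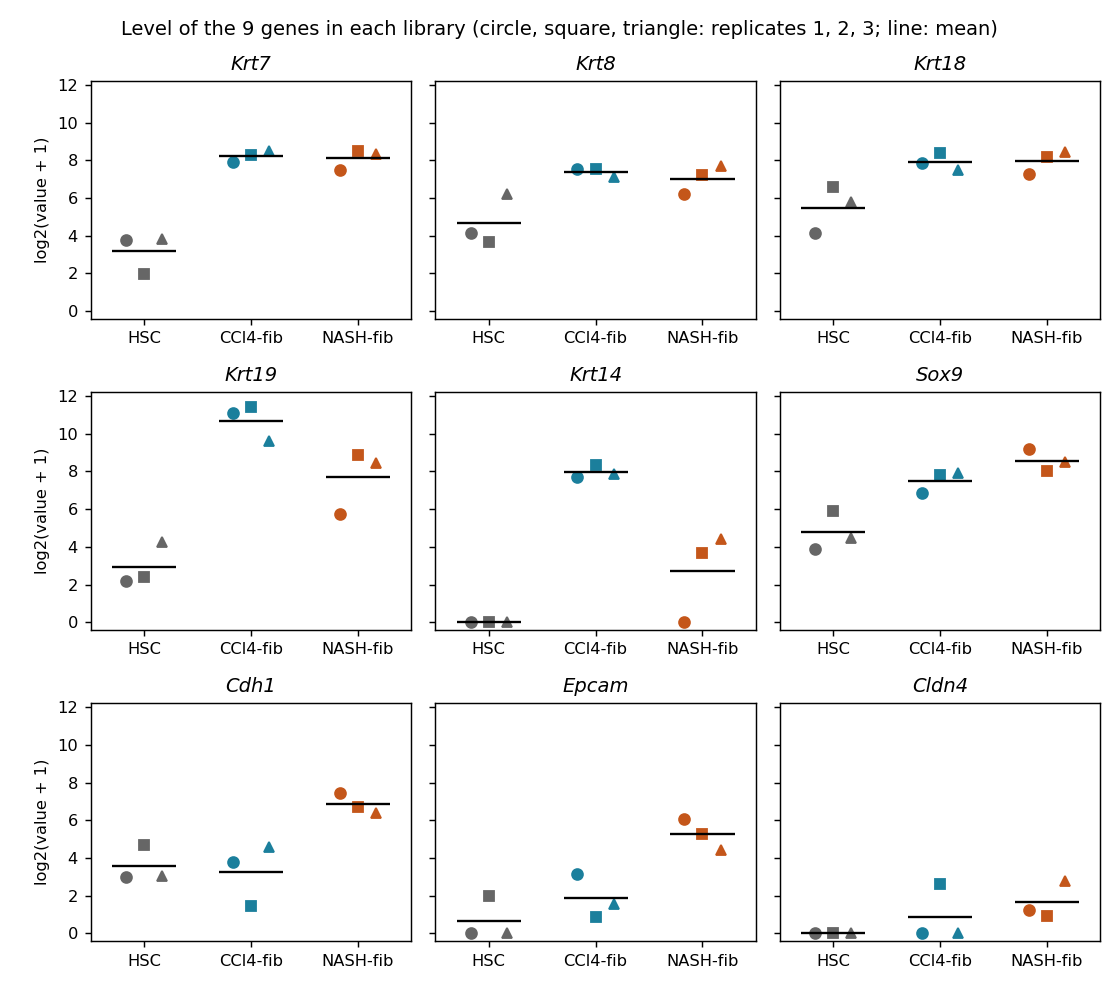
Level of each of the 9 genes as log2(value + 1), with 1 point per library, the 3 groups on the horizontal axis and a line at the mean of a group. Krt7, Krt8, Krt18 and Sox9 lie higher in all 6 fibroblast libraries than in the 3 HSC libraries, Krt14 and Krt19 are highest in CCl4-fib, and Cdh1 and Epcam in NASH-fib.

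Krt7 (NM_033073, mm10 chromosome 15, 101412403 to 101427806, plus strand) had values of 12.9, 2.91 and 13.2 in the HSC libraries, of 241, 304 and 363.5 in CCl4-fib and of 177, 355 and 323 in NASH-fib. The HSC libraries lay far below all 6 fibroblast libraries, and the 2 fibroblast groups overlapped. Krt7 rose by 5.03 ± 0.55 (log2 fold change ± SE) in CCl4-fib (adjusted p = 0.000127, limma) and by 4.90 ± 0.55 in NASH-fib (adjusted p = 0.000245, limma). Between the fibroblast groups the difference was -0.13, with a 95% interval of -1.35 to 1.09 (adjusted p = 0.893, limma).

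Krt8 (NM_031170, chromosome 15, 101996711 to 102004342, minus strand), the type II chain of all simple epithelia, had values of 16.4, 11.7 and 71.7 in the HSC libraries, of 183, 185 and 135 in CCl4-fib and of 73.4, 146 and 203 in NASH-fib. HSC replicate 3 came within a few units of NASH-fib replicate 1, so the groups were apart by little. Krt8 rose by 2.73 ± 0.65 in CCl4-fib (adjusted p = 0.0108, limma) and by 2.38 ± 0.65 in NASH-fib (adjusted p = 0.0367, limma). The second call was lost with edgeR (adjusted p = 0.0604) and without any 1 of 7 libraries, namely HSC replicate 1 (0.134), HSC replicate 2 (0.109), NASH-fib replicate 2 (0.105) and NASH-fib replicate 3 (0.143), and CCl4-fib replicates 1, 2 and 3 (0.0613, 0.0625 and 0.0589). The fibroblast groups differed by -0.35, with a 95% interval of -1.79 to 1.09. Of the 36-base stretches of the Krt8 transcripts, 33.9% also occur in other annotated genes, 585 of 1923 in the pseudogene Krt8-ps, so the counting of its reads is uncertain.

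Krt18 (NM_010664, chromosome 15, 102028216 to 102032026, plus strand), the partner of keratin 8, had values of 16.4, 93.2 and 53.8 in the HSC libraries, of 234, 334 and 177 in CCl4-fib and of 151, 286 and 350 in NASH-fib. On the log scale its HSC libraries were spread more widely than its fibroblast libraries, and all stayed below them. Krt18 rose by 2.43 ± 0.61 in CCl4-fib (adjusted p = 0.0138, limma) and by 2.47 ± 0.61 in NASH-fib (adjusted p = 0.0219, limma), and the fibroblast groups differed by 0.04, with a 95% interval of -1.31 to 1.39. The call in CCl4-fib was lost without CCl4-fib replicate 2 (adjusted p = 0.0631, limma). The call in NASH-fib was lost without HSC replicate 1 (0.0651), NASH-fib replicate 2 (0.0724) or NASH-fib replicate 3 (0.0900).

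Krt19 (NM_008471, chromosome 11, 100140811 to 100145926, minus strand), a type I chain of bile duct epithelium, had values of 3.51, 4.37 and 17.9 in HSCs, from 3, 3 and 15 reads. In CCl4-fib its values were 2174, 2699 and 771, and in NASH-fib 53.0, 469 and 348. The 3 groups did not overlap, with CCl4-fib highest and HSCs lowest. Krt19 rose by 7.75 ± 0.86 in CCl4-fib (adjusted p = 0.000136, limma) and by 4.75 ± 0.86 in NASH-fib (adjusted p = 0.00405, limma). The difference of -2.999 between NASH-fib and CCl4-fib (95% interval -4.90 to -1.10) did not pass the threshold (adjusted p = 0.0502, limma). It passed with DESeq2, with log2 CPM, with upper-quartile scaling and with a pseudocount of 5, and without HSC replicate 2, HSC replicate 3 or NASH-fib replicate 2. With NASH-fib replicate 1 left out it was -2.03 (adjusted p = 0.114, limma).

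Krt14 (NM_016958, chromosome 11, 100203162 to 100207510, minus strand) had 0 reads in all 3 HSC libraries, values of 205, 317 and 231 in CCl4-fib and values of 0, 11.6 and 20.6 in NASH-fib, from 0, 13 and 21 reads. It was thus read in every CCl4-fib library, in NASH-fib replicates 2 and 3 and in no HSC library. Its level in CCl4-fib was at least 65.7-fold higher than a floor of 3 reads per HSC library (adjusted p = 0.000276, limma). In NASH-fib it was at least 2.81-fold higher than that floor and was not called (adjusted p = 0.119, limma), while DESeq2 (adjusted p = 0.00105) and edgeR (adjusted p = 0.0380) called it, as did limma without NASH-fib replicate 1 (adjusted p = 0.00125). Krt14 was lower in NASH-fib than in CCl4-fib by a log2 fold change of -5.26 ± 0.99 (adjusted p = 0.0140, limma), which was lost without CCl4-fib replicate 2 (adjusted p = 0.0662, limma). The transcripts of Krt14 share 23.9% of their 36-base stretches with other genes, 272 of 1721 with Krt16, another type I keratin.

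**Figure D2:**
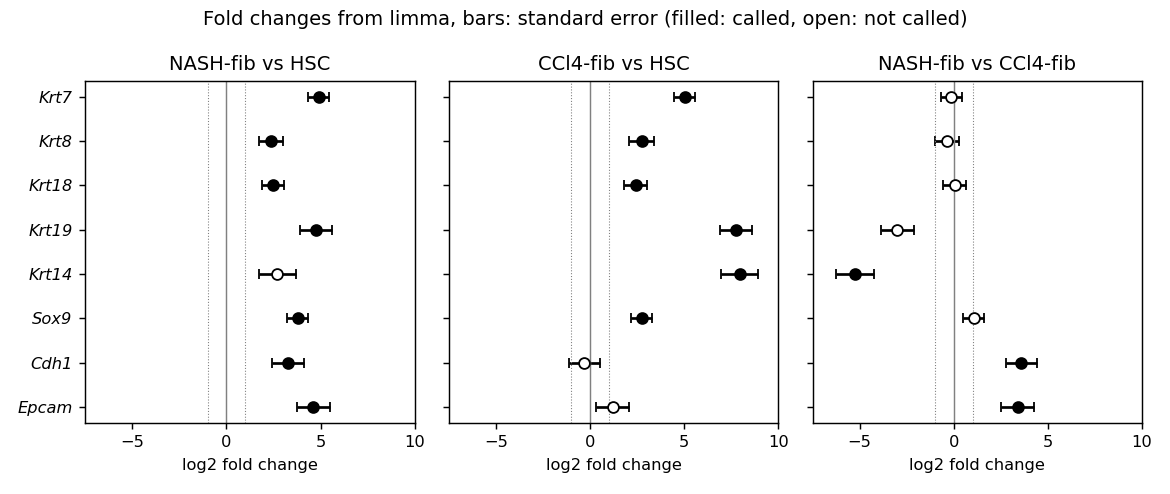
Log2 fold changes of the 8 tested genes in the 3 comparisons, from limma on log2(value + 1), with standard errors as bars, dotted lines at a 2-fold change and filled points for called genes. The fitted change of Krt14 against HSCs depends on the pseudocount, since all 3 HSC libraries were at 0 reads. In NASH-fib against CCl4-fib, Krt14 lies at -5.26, and Cdh1 and Epcam at 3.58 and 3.40.

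Summed per kilobase of exon, the 3 type I keratins had a level of 14.3, 70.2 and 51.7 in the HSC libraries, of 1876, 2398 and 829 in CCl4-fib and of 147, 554 and 517 in NASH-fib. The 2 type II keratins had a level of 17.3, 8.34 and 48.3 in the HSC libraries, of 255, 296 and 306 in CCl4-fib and of 153, 307 and 319 in NASH-fib. The level of type II chains thus overlapped between the fibroblast groups, and that of type I chains did not. The ratio of type I to type II level was 7.34, 8.10 and 2.71 in CCl4-fib, against 0.961, 1.81 and 1.62 in NASH-fib. In HSCs, where few reads stand behind it, the ratio ran from 0.829 to 8.41. Krt19 made up 84.4%, 81.96% and 67.7% of the type I level in CCl4-fib, against 26.3%, 61.7% and 49.0% in NASH-fib. Of the type II level, Krt7 made up 59.98%, 65.3% and 75.3% in CCl4-fib, against 73.3%, 73.5% and 64.4% in NASH-fib. In CCl4-fib, Krt19 was the most abundant of the 9 genes per kilobase at 1370 ± 726 (SD, n = 3), while in NASH-fib Krt19 (211 ± 156), Krt18 (189 ± 73.0) and Krt7 (181 ± 60.5) did not differ beyond their spread. Krt19 had 2739, 3173 and 808 reads on 1373 exonic bases in CCl4-fib. At most 3 reads were counted per position, which can understate such a level, and its effect was not tested.

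**Figure D3:**
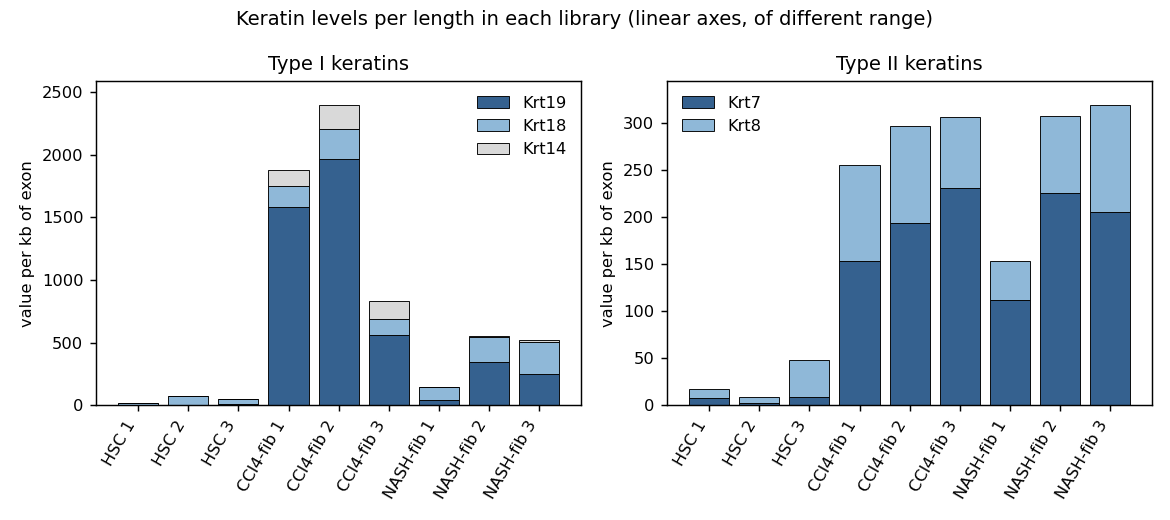
Value per kilobase of exon of the 3 type I keratins (left) and the 2 type II keratins (right), stacked for each library on linear axes of different range. The type I bars reach 829 to 2398 in CCl4-fib, mostly Krt19, and 147 to 554 in NASH-fib, while the type II bars of the fibroblast groups overlap.

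The file holds 47 other keratins, of which 30 had no read in any library, 40 had at most 10 reads in every library and 3 were tested. Krt20, a type I keratin of gastrointestinal epithelium, had 0 reads in HSCs, values of 23.8, 73.1 and 33.4 in CCl4-fib and values of 10.9, 6.23 and 1.97 in NASH-fib. It rose in both fibroblast groups, at least 11.4-fold in CCl4-fib and at least 1.66-fold in NASH-fib against the floor in HSCs, and was lower in NASH-fib than in CCl4-fib by -2.65 ± 0.74 (adjusted p = 0.0459, limma), a call that DESeq2 shared and edgeR did not. Krt23 had 0 reads in HSCs and values of 13.6, 14.3 and 10.8 in NASH-fib, a level at least 3.37-fold above the floor (adjusted p = 0.00687, limma), while its values in CCl4-fib were 0.79, 6.80 and 2.86. Krt10, a type I keratin of the differentiated epidermis, had values of 13.4 to 62.6 over all libraries and was called in none of the comparisons.

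Sox9 (NM_011448, chromosome 11, 112782210 to 112787757, plus strand) had values of 14.0, 59.7 and 21.5 in the HSC libraries, of 114, 219 and 237 in CCl4-fib and of 578, 254 and 363 in NASH-fib. The 3 groups did not overlap, HSCs being lowest and NASH-fib highest, although NASH-fib replicate 2 was close to CCl4-fib replicate 3. Of all tested genes, 17.1% lay fully apart in this direction in NASH-fib against CCl4-fib. Sox9 rose by 2.73 ± 0.57 in CCl4-fib (adjusted p = 0.00532, limma) and by 3.78 ± 0.57 in NASH-fib (adjusted p = 0.00138, limma). The difference of 1.05 between the fibroblast groups was not called (95% interval -0.21 to 2.31, adjusted p = 0.249, limma). Among 11 other Sox genes 9 were tested, and 1 was called higher and 1 lower in NASH-fib against HSCs, 3 higher and 3 lower in CCl4-fib against HSCs, and 2 higher and 0 lower in NASH-fib against CCl4-fib. Sox18, a factor of endothelial cells, fell by 3.87 in NASH-fib and by 5.91 in CCl4-fib on the log2 scale. Sox17 and Sox7, of the same subfamily, were also lower in CCl4-fib, Sox17 at least 18.6-fold and Sox7 by a log2 fold change of -5.17, and Sox7 was 3.22 higher in NASH-fib than in CCl4-fib. Sox6 had values of 91.2, 83.0 and 99.2 in the HSC libraries, of 256, 150 and 170 in CCl4-fib and of 462, 477 and 463 in NASH-fib, with NASH-fib 2.35 ± 0.33 above HSCs and 1.32 ± 0.33 above CCl4-fib.

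Cdh1 (NM_009864, chromosome 8, 106603350 to 106670247, plus strand) had values of 7.01, 24.8 and 7.17 in the HSC libraries, of 12.7, 1.70 and 22.9 in CCl4-fib and of 173, 102 and 82.6 in NASH-fib. All 3 NASH-fib libraries lay above the other 6, which overlapped. Cdh1 was higher in NASH-fib than in HSCs by 3.27 ± 0.83 (adjusted p = 0.0250, limma) and than in CCl4-fib by 3.58 ± 0.83 (adjusted p = 0.0256, limma). CCl4-fib and HSCs differed by -0.31 ± 0.83 (adjusted p = 0.802, limma). Both calls were close to the threshold. The call against HSCs was lost without HSC replicate 1 (adjusted p = 0.0971, limma), HSC replicate 3 (0.0806) or NASH-fib replicate 1 (0.0619), 2 (0.0657) or 3 (0.0562). The call against CCl4-fib was lost without CCl4-fib replicate 1 (0.0615) or 2 (0.0913) or NASH-fib replicate 1 (0.0702) or 3 (0.0678).

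Epcam (NM_008532, chromosome 17, 87635979 to 87651127, plus strand), whose promoter with its 2 E-boxes is printed above, had values of 0, 2.91 and 0 in HSCs, from 2 reads in all. Its values were 7.94, 0.85 and 1.91 in CCl4-fib (13 reads in all), against 66.6, 37.4 and 20.6 in NASH-fib (112 reads in all). The NASH-fib libraries lay above all others, and HSCs and CCl4-fib overlapped. The ratio of reads per depth between NASH-fib and HSCs was 46.3, with a 95% exact counting interval of 12.5 to 387 (adjusted p = 0.00528, limma). Between NASH-fib and CCl4-fib it was 10.4 (5.86 to 20.2), with a log2 fold change of 3.40 ± 0.87 (adjusted p = 0.0352, limma), and between CCl4-fib and HSCs it was 4.44 (1.005 to 40.5, adjusted p = 0.323, limma). Amplified reads are not independent molecules, so these intervals cover counting error only. DESeq2 and edgeR also called NASH-fib against CCl4-fib, and limma lost this call without CCl4-fib replicate 2 (adjusted p = 0.139), CCl4-fib replicate 3 (0.0966) or NASH-fib replicate 1 (0.107), 2 (0.0568) or 3 (0.0699).

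Cldn4 (NM_009903, chromosome 5, 134945124 to 134946934, minus strand) had 0 reads in HSCs, 6 reads in CCl4-fib, all in replicate 2, and 8 reads in NASH-fib. Its values were 0, 5.10 and 0 in CCl4-fib, against 1.36, 0.89 and 5.90 in NASH-fib, so the fibroblast groups overlapped. The ratio of reads per depth between NASH-fib and CCl4-fib was 1.62, with a 95% exact counting interval of 0.491 to 5.65, and no difference was detectable at this depth.

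Within NASH-fib, replicate 1 had the lowest value of the group for all 5 keratins and the highest for Sox9, Cdh1 and Epcam. The same library had the lowest summed value of the portal fibroblast genes (2887, against 11022 and 8466 in replicates 2 and 3) and of the smooth muscle genes (5749, against 25780 and 16519). Of the mesothelial genes, Msln had values of 934, 8041 and 10679 in replicates 1, 2 and 3 of NASH-fib, Nkain4 of 160, 2335 and 2005 and Upk3b of 141, 965 and 806. Gpm6a (21260.5, 11013.5 and 13785.9), Bnc1 (1059, 545 and 638), Wt1 (466, 379 and 396) and Rspo1 (575, 436 and 383) were instead highest in replicate 1. The remaining mesothelial genes were lowest there, and the summed value of the list was 29504, 31542 and 37635. The part of these marker genes in the levels of the 9 genes was not tested. Without this library, 6 of the 7 genes called against HSCs in NASH-fib were called again, Krt14 was called too, and Cdh1 was not. The log2 fold changes against HSCs were then 5.22 for Krt7, 2.78 for Krt8, 2.83 for Krt18, 5.72 for Krt19, 3.47 for Sox9, 2.97 for Cdh1 and 4.19 for Epcam. The library names carry date-like prefixes, of which 1 (11-3) covers a library of every group, HSC replicate 2, CCl4-fib replicate 1 and NASH-fib replicate 1. Within it, NASH-fib minus HSC on the log2(value + 1) scale was 5.51 for Krt7, 3.33 for Krt19, 2.75 for Cdh1, 4.11 for Epcam, 3.25 for Sox9, 2.56 for Krt8, 0.69 for Krt18 and 0 for Krt14, with 1 library on each side. NASH-fib minus CCl4-fib was 3.66 for Cdh1, 2.92 for Epcam, 2.34 for Sox9, -5.33 for Krt19 and -7.68 for Krt14 within 11-3, and 1.96, 3.31, 0.36, -0.93 and -3.81 within 11-7, which holds 2 NASH-fib libraries and 1 of CCl4-fib. CCl4-fib minus HSC within 11-3 and 11-4, with 1 library on each side, was 5.95 and 4.43 for Krt7, 3.87 and 1.35 for Krt8, 1.32 and 2.61 for Krt18, 8.66 and 7.16 for Krt19 and 0.92 and 3.29 for Sox9. In a fit with the prefix as a block, 3 of the genes were called in NASH-fib against HSCs, 5 in CCl4-fib against HSCs and 1 in NASH-fib against CCl4-fib. With this block the log2 fold change of Cdh1 against HSCs was 1.86 in NASH-fib (adjusted p = 0.381, limma), that of Krt18 1.70 (0.296), that of Krt8 2.32 (0.183) and that of Epcam 4.16 (0.0677). The block also ended the call of Krt18 in CCl4-fib against HSCs, at 1.69 (adjusted p = 0.0872, limma), and the calls of Cdh1 and Epcam in NASH-fib against CCl4-fib, at 2.83 (0.0559) and 3.16 (0.0675).

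A further list held 20 genes of cholangiocyte function, and 16 were tested. In NASH-fib against HSCs, 9 were called higher and 0 lower, with a median log2 fold change of 3.98, or 3.797 with genes at 0 reads set to their bound. In CCl4-fib against HSCs, 4 were called higher and 0 lower (median 1.22, or 0.95 with the bounds), while edgeR called 1 lower and DESeq2 2 lower, and in NASH-fib against CCl4-fib 7 were higher and 0 lower (median 2.98, or 2.36 with the bounds). The last count was 4, 2 and 3 when replicates 1, 2 and 3 of CCl4-fib were left out in turn, 3 with NASH-fib replicate 1 left out and 1 with NASH-fib replicate 3 left out. The first count was 9 to 10 without a CCl4-fib library or NASH-fib replicate 1 and 6 to 8 without another library.

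Prom1, which encodes the membrane protein CD133, had 0 reads in HSCs, values of 22.2, 0 and 0 in CCl4-fib and values of 81.6, 99.8 and 93.4 in NASH-fib. Pkhd1, which encodes fibrocystin of the primary cilium, had 0 reads in HSCs, values of 0, 9.36 and 0 in CCl4-fib, against 122, 36.5 and 93.4 in NASH-fib. Both had no overlap between NASH-fib and the other libraries, and against the HSC floor they were at least 24.0-fold and at least 22.0-fold higher. Mmp7, a matrix metalloproteinase of glandular epithelia, had 0 reads in HSCs and 1 read in CCl4-fib, and its values in NASH-fib were 74.8, 45.4 and 51.1, at least 14.9-fold above the HSC floor. Its read ratio between NASH-fib and CCl4-fib was 191, with a 95% exact counting interval of 33.9 to 7607.

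Tspan8, Spp1 and Bicc1 of the list were high in both fibroblast groups. Tspan8, a tetraspanin, had values of 15.2, 10.2 and 7.17 in the HSC libraries, of 308, 191 and 339 in CCl4-fib and of 1702, 510 and 553 in NASH-fib, and rose by 4.58 ± 0.52 and 6.10 ± 0.52 against HSCs. Spp1, which encodes osteopontin and also stands on the activated fibroblast list, rose by 4.00 ± 0.62 in CCl4-fib and by 6.10 ± 0.62 in NASH-fib. Bicc1, an RNA-binding protein, rose by 3.70 ± 0.61 and 2.67 ± 0.61. Tspan8, Spp1 and Bicc1 were not called between the fibroblast groups (adjusted p = 0.0879, 0.0561 and 0.292, limma). Cftr, Aqp1 and Slc4a2 were chosen after their values were seen. Cftr, the chloride channel of the bile duct, had values of 9.35, 0 and 7.17 in the HSC libraries, of 12.7, 28.1 and 0 in CCl4-fib and of 250, 125 and 231 in NASH-fib. NASH-fib was 5.47 ± 1.23 above HSCs (adjusted p = 0.0136, limma) and 4.72 ± 1.23 above CCl4-fib (0.0367), while CCl4-fib was not called against HSCs (0.675). Of the 16 tested genes, 7 were not called in NASH-fib against HSCs. Among them, Aqp1 differed by 0.18 (adjusted p = 0.946, limma) and Slc4a2 by 0.09 (0.982), and neither was called in another comparison. Of the 20 genes, 5 had 0 reads in all HSC libraries, 4 in all CCl4-fib libraries and 1 in all NASH-fib libraries.

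**Figure D4:**
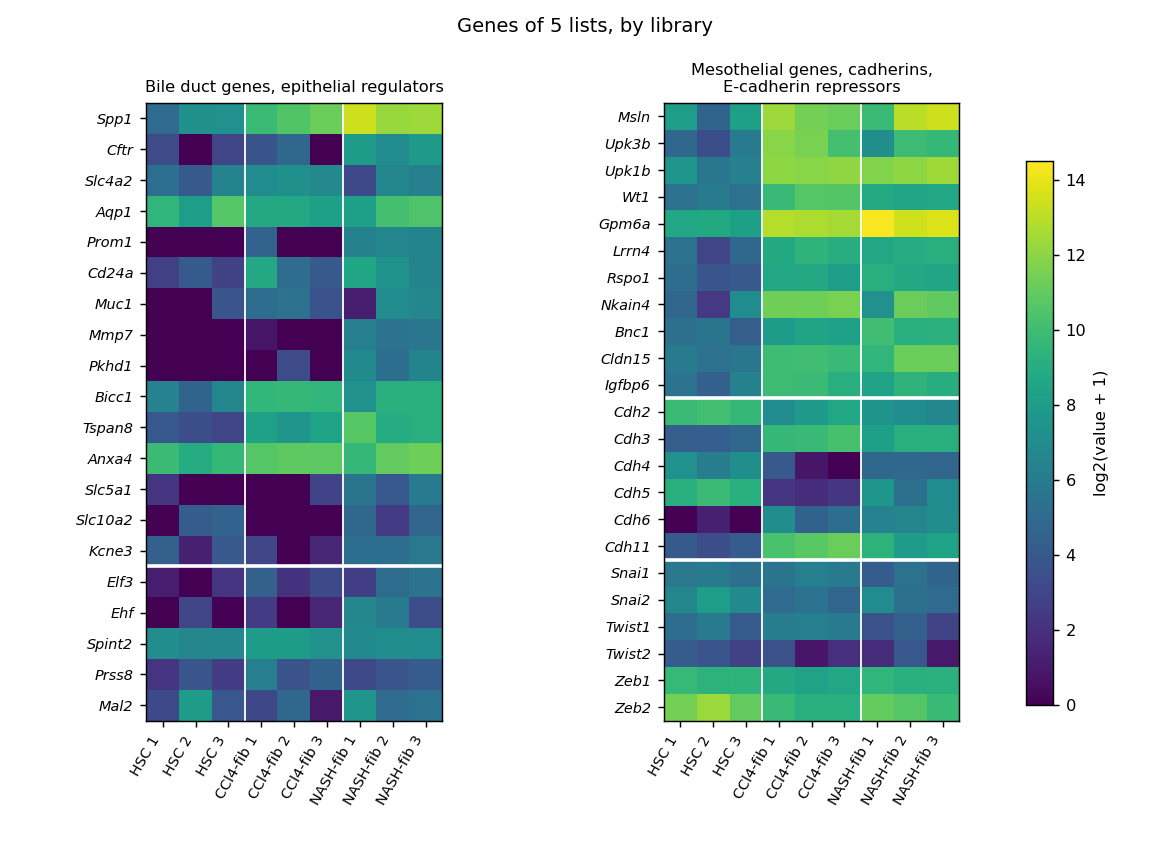
Level as log2(value + 1) of tested genes of 5 lists in each of the 9 libraries, with libraries on the horizontal axis. White horizontal lines part bile duct genes from epithelial regulators (left) and mesothelial genes, cadherins and E-cadherin repressors (right). Prom1, Mmp7 and Pkhd1 are high in the 3 NASH-fib libraries, and the mesothelial genes are high in all 6 fibroblast libraries.

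Junction genes were called in both directions only in CCl4-fib against HSCs. Of 28 genes of tight junctions, adherens junctions and desmosomes, 21 were tested. In NASH-fib against HSCs 6 were called higher and 0 lower (median 0.92), in CCl4-fib against HSCs 6 higher and 3 lower (median 0.13), and in NASH-fib against CCl4-fib 4 higher and 0 lower (median 0.23). The last count was 2 with CCl4-fib replicate 1 left out and 1 with CCl4-fib replicate 3 or NASH-fib replicate 3 left out. For all tested genes the 3 medians were -0.02, 0.18 and -0.11. In CCl4-fib against HSCs, 16.2% of all tested genes were called higher and 11.7% lower. The shares were 8.23% and 4.3% in NASH-fib against HSCs, and 4.97% and 5.66% in NASH-fib against CCl4-fib. The 3 junction genes called lower by limma were 2 with edgeR and 4 with DESeq2. Dsg2, a desmosomal cadherin, had values of 49.1, 46.6 and 40.7 in the HSC libraries, of 483, 465 and 693 in CCl4-fib and of 470, 256 and 334 in NASH-fib, and rose by 3.54 ± 0.36 and 2.89 ± 0.36. Ppl and Evpl, which encode the keratin-binding plakins periplakin and envoplakin, were also called in both groups, Ppl with 3.16 ± 0.58 in NASH-fib, and Evpl with a read ratio of 36.2 (6.22 to 1456) in CCl4-fib from 1 read in HSCs. Cldn3 rose by 3.52 ± 0.83 in CCl4-fib (adjusted p = 0.00987, limma), where its values were 15.1, 61.2 and 19.1.

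Claudin 2, a pore-forming claudin of leaky epithelia, was the junction gene with the largest difference between the fibroblast groups. Cldn2 had values of 58.5, 26.2 and 89.7 in the HSC libraries, of 9.52, 8.51 and 0 in CCl4-fib and of 345, 321 and 425 in NASH-fib. The 3 groups did not overlap, and NASH-fib exceeded CCl4-fib by 6.28 ± 0.85 (adjusted p = 0.00618, limma). Dsc2, a desmosomal cadherin, followed with 3.85 ± 0.92 and Cldn8, another tight junction claudin, with 3.71 ± 0.90. Cldn8 had 1 read in HSCs and 75 in NASH-fib, a read ratio of 62.0 (10.8 to 2482).

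Of 18 epithelial regulators 5 were tested, and 2 were called higher in NASH-fib against HSCs, 0 in CCl4-fib against HSCs and 1 in NASH-fib against CCl4-fib. In CCl4-fib against HSCs, limma gave 3 of them an unadjusted p under 0.05, all higher, limma without a filter on low values called 2 regulators, DESeq2 called 1 and edgeR 0. Ehf, an epithelial ETS factor, had values of 0, 7.28 and 0 in the HSC libraries, of 4.76, 0 and 1.91 in CCl4-fib and of 105, 58.8 and 9.83 in NASH-fib, which lay above the other libraries by 4.34 ± 1.14 against HSCs (adjusted p = 0.0303, limma) and 4.00 ± 1.14 against CCl4-fib (adjusted p = 0.0499, limma). Elf3, of the same ETS subfamily, was 3.33 ± 0.96 above HSCs in NASH-fib (adjusted p = 0.0460, limma). The count of 2 was 0 without HSC replicate 1, 0 without NASH-fib replicate 2 and 1 without any 1 of the other libraries. Without any 1 library other than HSC replicate 2, the count of 1 was 0.

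All 6 repressors of E-cadherin were tested, with 0 called by limma, edgeR or DESeq2 in NASH-fib against HSCs (3 lower at an unadjusted p under 0.05 in limma), 2 lower in CCl4-fib against HSCs and 1 lower in NASH-fib against CCl4-fib. Zeb2 had values of 2843, 5051 and 2043 in the HSC libraries, of 879, 573 and 563 in CCl4-fib and of 2127, 1663 and 918 in NASH-fib, and fell by 2.23 ± 0.44 in CCl4-fib (adjusted p = 0.00378, limma). Snai2 fell by 2.12 ± 0.60 in CCl4-fib (adjusted p = 0.0239, limma). Twist1 had values of 69.1, 76.6 and 63.0 in CCl4-fib, against 10.9, 20.5 and 6.88 in NASH-fib, a log2 fold change of -2.48 ± 0.59 (adjusted p = 0.0282, limma). Among 6 other classical cadherins, the calls were 3 higher and 2 lower in NASH-fib against HSCs, 3 higher and 3 lower in CCl4-fib against HSCs, and 1 higher and 1 lower in NASH-fib against CCl4-fib. Cdh11, of mesenchymal cells, rose by 6.84 ± 0.44 in CCl4-fib and 4.65 ± 0.44 in NASH-fib and differed by -2.19 ± 0.44 between NASH-fib and CCl4-fib. Cdh3, P-cadherin, rose by 5.38 ± 0.38 and 4.32 ± 0.38. Cdh6, K-cadherin, had 1 read in HSCs and a read ratio of 255 (45.4 to 10094) in NASH-fib. Cdh5, of endothelial cells, had a log2 fold change of -7.25 ± 0.58 in CCl4-fib against HSCs and was 4.53 ± 0.58 higher in NASH-fib than in CCl4-fib.

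Markers of other cell types also differed between the groups, in directions that varied by list, and their part in the results was not tested. Of 11 mesothelial genes in the file, all 11 were called higher in both fibroblast groups against HSCs, 0 higher and 1 lower in NASH-fib against CCl4-fib, and none was at 0 in a group. Their summed value was 728 to 1191 in HSCs, 21120 to 27482 in CCl4-fib and 29504 to 37635 in NASH-fib. Upk1b, an uroplakin, had values of 195, 51.0 and 80.1 in the HSC libraries, of 4129, 3895 and 4366 in CCl4-fib and of 3415, 4223 and 5496 in NASH-fib. Upk1b rose by 5.46 ± 0.45 and 5.52 ± 0.45, Msln (mesothelin) by 4.67 ± 1.04 and 5.09 ± 1.04, Gpm6a (a membrane glycoprotein) by 4.15 ± 0.34 and 5.28 ± 0.34 and Upk3b by 6.43 ± 0.83 and 4.10 ± 0.83, in CCl4-fib and NASH-fib. Nkain4 rose by 6.66 ± 1.16 in CCl4-fib. Wt1, a transcription factor of mesothelium, differed by -1.67 ± 0.36 between NASH-fib and CCl4-fib (adjusted p = 0.0215, limma).

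Of 15 hepatocyte genes, 0 were called in NASH-fib against HSCs by limma, edgeR or DESeq2, with 0 at an unadjusted p under 0.05 in limma, 12 were lower in CCl4-fib against HSCs and 8 were higher in NASH-fib against CCl4-fib. Their summed value was 31808 to 57615 in HSCs, 3365 to 5289 in CCl4-fib and 12315 to 44969 in NASH-fib. Other lists are given as counts called higher and lower. In NASH-fib against CCl4-fib they were 7 and 0 of 9 sinusoidal endothelial genes, 2 and 0 of 10 macrophage genes, 4 and 0 of 7 neutrophil genes, 3 and 0 of 5 lymphocyte genes, 0 and 1 of 7 smooth muscle genes, 0 and 2 of 8 portal fibroblast genes, 1 and 0 of 9 quiescent stellate cell genes and 0 and 4 of 9 activated fibroblast genes. In NASH-fib against HSCs, in the same order, they were 1 and 6, 0 and 4, 0 and 0, 0 and 0, 5 and 0, 8 and 0, 0 and 8, and 6 and 1. There limma gave 5 neutrophil genes and 1 lymphocyte gene an unadjusted p under 0.05, all higher, edgeR called 2 and 0 of them and DESeq2 3 and 0. The limma calls in CCl4-fib against HSCs were 1 and 8, 0 and 7, 1 and 0, 0 and 1, 6 and 0, 8 and 0, 0 and 8, and 8 and 0. The endothelial gene called higher against HSCs in both fibroblast groups was Cd34, which also stands on the portal fibroblast list.

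For the 8 tested genes, the genes closest in pattern were found by the root mean square difference of log2(value + 1) over the 9 libraries, after centring each gene on its mean. Closest to Krt7 were the mesothelial gene Lrrn4 (0.33), Psat1, an enzyme of serine synthesis (0.43), and Upk1b (0.48). Lrrn4 averaged 25.2 in HSCs, 553 in CCl4-fib and 489 in NASH-fib. Closest to Krt8 were Dync2li1 (0.38), Gpr173 (0.41) and Bag2 (0.41), and to Krt18 Hr (0.40), Morn2 (0.45) and Rps6ka5 (0.45). Krt19 lay closest to Ptges, a prostaglandin E synthase (0.63), the kinase gene Mapk13 (0.67) and the mesothelial gene Upk3b (0.69). Krt14 lay closest to Prss35 (0.62), to Phgdh, the first enzyme of serine synthesis (0.79), and to the growth factor gene Mdk (0.84). Sox9 lay closest to Met, the receptor of hepatocyte growth factor (0.42), Plxdc2 (0.45) and Nfkbiz (0.45). Cdh1 and Epcam shared Kcnd3, a potassium channel gene, among their nearest genes (0.90 and 0.68). Cdh1 lay closest to Inpp4b, a lipid phosphatase (0.78), followed by Cib3 (0.89). Next to Kcnd3, the nearest genes of Epcam were Ehf (0.68) and 6430584L05Rik (0.72).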

How the data were processed

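RNA was amplified with the SMARTer Ultra Low Input kit and sequenced single-end, and the authors aligned reads to mm10 with STAR (CASAVA is also named in the processing notes) and counted them on RefSeq exons with HOMER, on both strands, with at most 3 reads per position. The deposited values are a signal per gene and library, scaled by the authors over a set of libraries of which 1 is not analysed here. Reads were recovered from the step between low values, and 100% of values came out whole (within 0.006). How reads matching several genes were counted is not given in the sources used here. None of the 9 genes overlapped another gene of the file.

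Since the values are not counts, limma 3.58.1 in R 4.3.3 (eBayes with trend) was fitted on log2(value + 1) over the 3 groups, for genes kept by filterByExpr (minimum count 10 on recovered reads) of edgeR 4.0.16, with Benjamini-Hochberg adjustment. edgeR had been planned for counts, and it and DESeq2 1.42.0 were run on recovered reads as alternatives, beside other scalings, pseudocounts, filters, blocks, a hepatocyte marker term and each library left out. The script was tested on simulated data. Columns of sample values left unused numbered 0. A fold against a group at 0 reads was computed against 3 reads per library. The 9 genes and the lists, written from general knowledge, were chosen with earlier results of these data known. Named were, from each list and comparison, up to 3 called genes with the largest change, the 3 genes nearest in pattern to each of the 8 tested, and the ends of ranges. Rgs5, Postn, Bnc1, Rspo1, Col1a2, Ptprc, Cftr, Aqp1 and Slc4a2 were named after their values were seen. By the methods each library came from a pool of 3 to 5 mice. Whether the pools were made from separate mice is not stated, and p-values measure the spread between libraries. Of the list genes, 1 is counted in its list but not reported by name here.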

Additional observations from a re-analysis of the deposited data

How the results depend on the processing

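Over 24 fold changes of the 8 tested genes, 483 alternative values were computed: 411 kept their direction and side of the threshold, 50 lost the call, 10 gained one and 12 changed sign. All 12 changes of sign were in comparisons that were not called. With 1 library left out, the value ran from -0.97 to 0.60 for Cdh1 in CCl4-fib against HSCs and, in NASH-fib against CCl4-fib, from -0.32 to 0.18 for Krt7, from -0.68 to 0.053 for Krt8 and from -0.21 to 0.39 for Krt18. For Krt7 in the latter comparison it was 0.050 with DESeq2, 0.072 with edgeR and 0.052 with log2 CPM, and for Krt18 -0.95 with the hepatocyte marker term. The number of the 9 genes called (7, 6 and 3 in NASH-fib against HSCs, CCl4-fib against HSCs and NASH-fib against CCl4-fib) was 1, 1 and 0 with an average RPKM over 100, which only 1080 genes passed, 3, 5 and 1 with the label prefix as a block, and 4 to 7, 5 to 6 and 0 to 4 when 1 library was left out. With the hepatocyte marker term it was 6, 0 and 0, and all genes called in CCl4-fib against HSCs then numbered 23 higher and 11 lower, against 2209 and 1592, while the log2 fold changes of Krt7, Krt8, Krt14, Krt18, Krt19 and Sox9 were 5.25, 4.69, 9.09, 3.63, 8.77 and 3.44. The cause was not tested. Replicate numbers did not pair the libraries, with correlations of same-numbered deviations between -0.473 and 0.514, and HSC replicate 2 correlated most with NASH-fib replicate 1 (0.645). With the replicate number as a block, the counts were 6, 6 and 1, and the 3 lost calls were Cdh1 in NASH-fib against HSCs (adjusted p = 0.0587, limma) and Cdh1 and Epcam in NASH-fib against CCl4-fib (0.0538 and 0.0602). The median of all genes in NASH-fib against CCl4-fib was -0.11 and moved to 0.12 with DESeq2 and 0.14 with edgeR, and the calls were 678 higher and 773 lower, 1518 and 1161 with DESeq2 and 802 and 563 with edgeR. In CCl4-fib against HSCs the median was 0.18 and moved to 0.02 and 0.00. Of the bile duct genes, 3 were called in NASH-fib against CCl4-fib with the prefix block and 0 with the hepatocyte term. Depth limits Cldn4, Epcam in HSCs and CCl4-fib, and Krt14 in NASH-fib, with 34 reads or fewer in these groups.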
